A study of Mus musculus with 23 samples.

Results

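The 10 genes described here are targets, feedback inhibitors and core factors of the WNT/β-catenin pathway, namely *Axin2*, *Nkd1*, *Rnf43*, *Znrf3*, *Lgr5*, *Lgr4*, *Lef1*, *Tcf7*, *Tcf7l2* and *Ctnnb1*. They were chosen by symbol and make up 10 of the 35455 genes listed for BRAFV600E- and BRAFV600E/PI3KαH1047R-driven lung tumors and 10 of the 35454 listed for BRAFV600E tumors that differ in PGC1α. All 10 had a mean normalized count of at least 10 in both tables and entered every test, beside 17558 and 17424 tested genes in all. None of the 10 differed between genotypes or weeks at an adjusted p-value under 0.05, and at most 0.0513% of all genes did in any comparison. In single libraries several of them stood far from the rest, and the levels of 5 of the 9 others by Pearson's r, and 7 by Spearman's rho, were correlated with that of *Axin2* across the 14 libraries of the first table, where 17.5% of all other genes had an r, and 16.2% a rho, at least as far from 0 as the weakest of these, while no such correlation passed the test across the 9 of the second. *Axin2* and 4 of these 5 were also correlated with endothelial marker RNA in the first table, and *Rnf43* and *Lgr5* were in the opposite direction by Pearson's r. Of all other genes, 25.4% had an r with that RNA at least as far from 0 as the weakest of these 7. By Spearman's rho 6 members passed, against 12.0% of all other genes.

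WNT ligands bind Frizzled receptors and LRP co-receptors, which stops a cytoplasmic destruction complex built on AXIN and APC from degrading β-catenin. Stabilized β-catenin then acts in the nucleus with TCF and LEF proteins on target genes, and some of these targets encode inhibitors of the pathway itself, so that their mRNA is widely used as a readout of signaling. In the lung, WNT ligands from nearby stromal cells are known to help maintain alveolar type 2 (AT2) pneumocytes, the cells that make surfactant and from which these tumors were started.

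RNA was sequenced from 23 libraries of tdTomato+ cells sorted from lungs of mice of mixed FVB, 129 and C57BL/6 descent, 3 to 4 months old, in which every tumor carried the *Braf* CAT allele on 1 chromosome (CAT/+). CRE was delivered by an adenovirus with an *Sftpc* promoter, so the alleles were switched on in *Sftpc* expressing cells, and time is given in weeks post initiation (p.i.). BRAFV600E tumors (CAT/+) gave 1, 3 and 2 libraries at 2, 6 and 12 weeks p.i., and BRAFV600E/PI3KαH1047R tumors (CAT/+ with the *Pik3ca* HR/+ allele) gave 2, 4 and 2. At 12 weeks p.i., 5 libraries came from BRAFV600E/PGC1αHet tumors with 1 mutant *Ppargc1a* allele and 4 from BRAFV600E/PGC1αNull tumors with none intact. The tables of these 14 and 9 libraries were normalized apart, so values are compared only within each. Mice taken at 12 weeks received a lower virus titer than those taken at 2 or 6 weeks, so later time and titer cannot be told apart.

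Normalized counts summed to between 16433820 and 20287296 in the first table and between 7115753 and 9159567 in the second. Depth in reads is unknown, so the error of a value is given by the spread between libraries alone. *Sftpc*, the defining AT2 gene, had 21173 to 392700 normalized counts in the first table and 222448 to 348418 in the second, and the epithelial gene *Epcam* had 221 to 3023 and 1176 to 2852. Endothelial RNA was also present, with 1384 to 24395 normalized counts of *Cdh5* in the first table and 20.9 to 379 in the second, and the macrophage gene *Csf1r* had 206 to 1474 and 51.1 to 336. The Y-linked gene *Kdm5d* went against the sex label in both BRAFV600E/PI3KαH1047R libraries at 12 weeks p.i., at 502 normalized counts in the male-labelled library and 4728 in its female-labelled partner, while in the second table it had 228 to 962 in the 6 female-labelled libraries, 4 of them at 635 or more, and 1291 to 1941 in the 3 male-labelled ones. Results that use both 12 week libraries with PI3KαH1047R are also given without them where that changes a direction.

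In GRCm38 with GENCODE vM21 gene models, *Axin2* (ENSMUSG00000000142.15) lies at chr11:108920349-108950783 on the plus strand and *Nkd1* (ENSMUSG00000031661.12) at chr8:88521354-88594884 on the plus strand. *Rnf43* (ENSMUSG00000034177.15) lies at chr11:87662722-87735539 on the plus strand and *Znrf3* (ENSMUSG00000041961.14) at chr11:5276324-5444847 on the minus strand, while *Lgr5* (ENSMUSG00000020140.15) lies at chr10:115450311-115587780 on the minus strand and *Lgr4* (ENSMUSG00000050199.13) at chr2:109917647-110014257 on the plus strand. *Lef1* (ENSMUSG00000027985.14) lies at chr3:131110471-131224356 on the plus strand, *Tcf7* (ENSMUSG00000000782.15) at chr11:52252371-52283014 on the minus strand, *Tcf7l2* (ENSMUSG00000024985.19) at chr19:55741820-55933654 on the plus strand and *Ctnnb1* (ENSMUSG00000006932.17) at chr9:120929216-120960507 on the plus strand. Counts are per gene and do not separate transcripts, exons or untranslated parts.

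Promoter sequences of RefSeq (GRCm38.p6), which run from 250 bases before to 50 bases after a transcript's start, were matched by symbol for 8 of the 10 genes, with 15 start sites in all, and *Lgr5* and *Znrf3* had no entry. They were searched on both strands for the TCF/LEF binding letters CTTTG followed by 2 bases that are each A or T, forms that share their first letters and so cannot match together at 1 place on a strand. Of the 15 start sites 2 held a match (13.3%), against 5544 of all 32851 promoters of this length (16.9%). 4 start sites are printed here, 5′ to 3′ on the strand of the gene, because *Axin2* and *Nkd1* had the highest correlation of any pair of members in the first table (Pearson's r of 0.851, but -0.659 in the second) and the *Lef1* and *Tcf7l2* sites are those with a match, whose letters are in capitals. The *Axin2* window is chr11:108920099-108920398, the *Nkd1* window chr8:88527383-88527682, the *Lef1* window chr3:131156044-131156343 and the *Tcf7l2* window chr19:55895071-55895370, all on the plus strand.
Axin2: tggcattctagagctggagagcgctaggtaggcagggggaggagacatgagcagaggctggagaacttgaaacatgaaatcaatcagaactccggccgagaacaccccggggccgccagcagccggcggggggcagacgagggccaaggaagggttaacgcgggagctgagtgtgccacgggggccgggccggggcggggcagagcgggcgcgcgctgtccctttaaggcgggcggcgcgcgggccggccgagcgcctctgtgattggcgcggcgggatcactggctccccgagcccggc
Nkd1: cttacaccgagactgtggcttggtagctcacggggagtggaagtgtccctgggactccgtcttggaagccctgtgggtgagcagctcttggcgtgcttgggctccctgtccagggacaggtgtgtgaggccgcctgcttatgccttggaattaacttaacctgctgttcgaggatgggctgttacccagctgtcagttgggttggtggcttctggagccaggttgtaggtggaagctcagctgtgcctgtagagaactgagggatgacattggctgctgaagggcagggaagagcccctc
Lef1: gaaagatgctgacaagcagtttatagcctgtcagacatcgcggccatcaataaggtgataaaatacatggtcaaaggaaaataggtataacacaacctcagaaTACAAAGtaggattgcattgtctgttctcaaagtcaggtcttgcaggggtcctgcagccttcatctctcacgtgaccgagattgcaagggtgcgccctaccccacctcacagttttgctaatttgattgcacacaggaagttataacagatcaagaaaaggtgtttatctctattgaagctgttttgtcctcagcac
Tcf7l2: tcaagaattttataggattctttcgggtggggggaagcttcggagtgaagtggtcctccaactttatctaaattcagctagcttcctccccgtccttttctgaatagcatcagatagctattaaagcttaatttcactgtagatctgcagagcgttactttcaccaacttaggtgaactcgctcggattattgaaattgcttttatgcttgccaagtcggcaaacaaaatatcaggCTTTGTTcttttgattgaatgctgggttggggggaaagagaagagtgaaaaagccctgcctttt
The *Lef1* match is CTTTGTA on the minus strand, starting at base 104 of the 300 shown, and the *Tcf7l2* match is CTTTGTT on the plus strand, starting at base 237. Both belong to start sites inside the gene, and the other 3 *Lef1* start sites and the other *Tcf7l2* start site held none of these letters in their windows. A match of letters is a description of the sequence and was not measured as a binding site.

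Levels were set beside each other per length, as normalized counts per kb of the longest coding transcript. *Ctnnb1*, which encodes β-catenin, was the highest of the 10 in both tables, with a median of 2773 per kb (range 1866 to 3512) in the first and 1282 per kb (857 to 1788) in the second. Its lowest library lay above the highest library of every other member in both tables. In the first table *Nkd1* followed at a median of 321 per kb, then *Tcf7l2* (184), *Znrf3* (161), *Rnf43* (144), *Tcf7* (109), *Axin2* (58.6), *Lef1* (40.7), *Lgr5* (13.9) and *Lgr4* (12.0), and every pair of neighbors below *Ctnnb1* overlapped in range. In the second table *Tcf7l2* was next after *Ctnnb1* at 112 per kb, and *Lgr4* was again lowest at 3.21 per kb. *Nkd1* there had 27.3 per kb and overlapped with its neighbors *Znrf3* (37.8) and *Lef1* (19.4). Across the 14 libraries *Ctnnb1* varied least, by 1.88-fold from lowest to highest, and *Tcf7l2*, *Rnf43* and *Znrf3* varied by 2.2- to 2.73-fold. *Lgr5* and *Lgr4* varied most, by 47.3- and 38.6-fold.

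**Figure D1:**
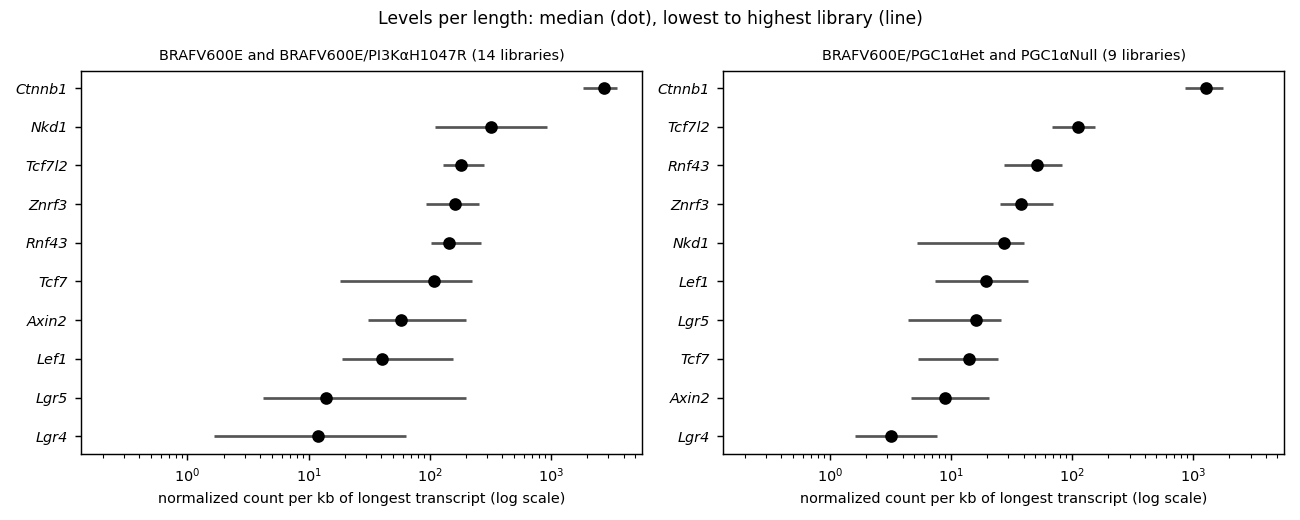
Normalized counts per kb of the longest coding transcript on a log axis for the 10 genes, with the median over libraries as a dot and the lowest to highest library as a line, at left for 14 libraries and at right for 9. *Ctnnb1* stands above the range of every other gene in both tables, and *Lgr4* has the lowest median in both.

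To learn whether PI3KαH1047R was accompanied by other levels of these genes, all 8 BRAFV600E/PI3KαH1047R libraries were compared with all 6 BRAFV600E libraries, and the 4 with the 3 libraries at 6 weeks. These comparisons share the 6 week libraries. A fold change is on the scale of log2 (normalized count + 1), where positive values stand for higher levels with PI3KαH1047R, tested by limma with Benjamini-Hochberg adjustment over all genes. With weeks pooled, 0 of the 10 members were called, against 0.0228% of all genes (4 of 17558), and 0 of the 10 had an unadjusted limma p-value under 0.05, against 6.83% of all genes. At 6 weeks the members again gave 0 calls, against 0.0228% of all genes (4 genes), and 0 unadjusted p-values under 0.05, against 4.24%. The median log2 fold change of the 10 was 0.22 with weeks pooled, beside 0.02 for all genes tested. By label the BRAFV600E libraries were female except 1 male at 6 weeks. Those with PI3KαH1047R were 2 males at 2 weeks, 2 males and 2 females at 6, and 1 of each at 12. All 4 Y-linked genes tested had a pooled log2 fold change above 0 (median 1.69). Genotype is thus partly mixed with sex in the pooled comparison, and at 2 weeks they cannot be told apart. Refits with the sex label use labels that *Kdm5d* went against at 12 weeks. In no member were both genotypes fully apart, with weeks pooled (0.211% of all genes were) or at 6 weeks (5.22%). The 2 and 12 week groups of 1 or 2 libraries were apart in 8 and 3 members, but also in 71.7% and 29.2% of all genes.

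*Axin2*, which encodes a scaffold of the destruction complex and is a widely used target and feedback inhibitor of the pathway, had 288 normalized counts in the BRAFV600E library at 2 weeks and 370 and 582 in the BRAFV600E/PI3KαH1047R libraries. At 6 weeks it had 180, 244 and 321 in BRAFV600E tumors and 845, 251, 245 and 200 with PI3KαH1047R. At 12 weeks it had 248 and 132 in BRAFV600E tumors and 198 and 294 with PI3KαH1047R. The groups overlapped at 6 and 12 weeks, and 1 library with PI3KαH1047R at 6 weeks stood far above all the others. With weeks pooled the log2 fold change was 0.53 ± 0.34 (SE, limma adjusted p = 0.763) and 6 of 8 libraries lay above the BRAFV600E mean (exact permutation p = 0.166, two-sided). At 6 weeks it was 0.40 ± 0.48 (SE, limma adjusted p = 1). Without that library (replicate 1) it was 0.33 with weeks pooled and -0.07 at 6 weeks.

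*Nkd1*, a target that encodes an inhibitor of Dishevelled, had 714 normalized counts in the BRAFV600E library at 2 weeks and 1915 and 1989 with PI3KαH1047R. Its 6 week values were 658, 1470 and 1793 in BRAFV600E tumors and 3800, 1048, 1210 and 535 with PI3KαH1047R. Its 12 week values were 1344 and 450.0 and 1275 and 1782, in the same order. Its highest library at 6 weeks was the one that was highest for *Axin2*, and the genotypes overlapped at 6 and 12 weeks. With weeks pooled its log2 fold change was 0.63 ± 0.40 (SE, limma adjusted p = 0.763), with 7 of 8 libraries above the BRAFV600E mean (exact permutation p = 0.175), and it was 0.41 without BRAFV600E replicate 2 at 12 weeks. *Rnf43* and *Znrf3* encode related membrane ubiquitin ligases that remove Frizzled receptors. *Rnf43* ranged from 493 to 1137 normalized counts in BRAFV600E tumors and from 442 to 860 with PI3KαH1047R, and its log2 fold change was -0.21 ± 0.21 (SE, limma adjusted p = 0.869), or -0.06 without the BRAFV600E library at 2 weeks. *Znrf3* ranged from 738 to 1363 and from 591 to 1612, and its log2 fold change was -0.04 ± 0.25 (SE, limma adjusted p = 0.98). Of the 8 libraries with PI3KαH1047R, 2 lay below every BRAFV600E library for *Rnf43*, and 2 lay above and 2 below for *Znrf3*. At 12 weeks *Rnf43* had 641 and 726 in BRAFV600E tumors against 621 and 558 with PI3KαH1047R, and *Znrf3* 877 and 826 against 1114 and 1240. The 95% interval of the difference ran from -0.66 to 0.25 for *Rnf43* and from -0.57 to 0.49 for *Znrf3*.

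*Lgr5* and *Lgr4* encode related receptors for R-spondins, proteins that block the removal of Frizzled receptors by RNF43 and ZNRF3, and *Lgr5* is itself a target and a stem cell marker of the gut. *Lgr5* had 73.6 normalized counts in the BRAFV600E library at 2 weeks and 19.8 and 69.2 with PI3KαH1047R. BRAFV600E tumors at 6 weeks had 937, 48.4 and 64.8, and those with PI3KαH1047R 29.6, 51.1, 70.0 and 62.6. BRAFV600E tumors at 12 weeks had 66.5 and 88.9, and those with PI3KαH1047R 88.7 and 47.6. A single BRAFV600E library at 6 weeks (replicate 1) was more than 10-fold above every other library, and the rest of both genotypes overlapped. Of the 7 libraries at 6 weeks it also had the highest AT2 marker sum (1181578 normalized counts) and the lowest endothelial (10327), fibroblast (6376), AT1 (40036) and macrophage (809) sums, whose part in its *Lgr5* and *Lgr4* values was not tested. Its log2 fold change with weeks pooled was -1.05 ± 0.57 (SE, limma adjusted p = 0.742, exact permutation p = 0.0763), with 0 of 8 libraries above the BRAFV600E mean, a mean that this library sets, and without it the log2 fold change was -0.42. At 6 weeks it was -1.49 ± 0.87 (SE, limma adjusted p = 1) and -0.14 without the same library.

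*Lgr4* had 111 normalized counts in the BRAFV600E library at 2 weeks and 237 and 168 with PI3KαH1047R. At 6 weeks it had 8.37, 55.8 and 142 in BRAFV600E tumors and 323, 33.0, 73.8 and 32.0 with PI3KαH1047R. At 12 weeks it had 66.0 and 37.0 in BRAFV600E tumors and 52.6 and 34.5 with PI3KαH1047R. The lowest library was the one that held the most *Lgr5*, and the highest was the one that held the most *Axin2* and *Nkd1*. The log2 fold change was 0.64 ± 0.67 (SE, limma adjusted p = 0.869, exact permutation p = 0.401) with weeks pooled, with an interval from -0.79 to 2.07. Without BRAFV600E replicate 1 at 6 weeks it was 0.14 with weeks pooled and -0.32 at 6 weeks, where it was 0.77 with all libraries, and without PI3KαH1047R replicate 1 at 6 weeks it was 0.36 with weeks pooled.

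*Lef1*, *Tcf7* and *Tcf7l2* encode members of the TCF/LEF family, the DNA-binding partners of β-catenin, and *Lef1* and *Tcf7* are also known in T cells. *Lef1* had 154 normalized counts in the BRAFV600E library at 2 weeks and 543 and 464 with PI3KαH1047R, a difference in log2 means of 1.70 that has no replicate check on the BRAFV600E side and cannot be told apart from sex, since the labels give that library as female and both others as male. The 3 BRAFV600E libraries at 6 weeks held 65.7, 265 and 177 and the 4 with PI3KαH1047R 363, 222, 107 and 93.0. At 12 weeks the BRAFV600E libraries held 111 and 71.5 and those with PI3KαH1047R 104 and 130. Both libraries with PI3KαH1047R at 2 weeks were above all 12 others, while the genotypes overlapped at the later weeks. With weeks pooled the log2 fold change was 0.69 ± 0.47 (SE, limma adjusted p = 0.78, exact permutation p = 0.196), and at 6 weeks it was 0.21 ± 0.55 (SE, limma adjusted p = 1).

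*Tcf7l2* had 703 normalized counts in the BRAFV600E library at 2 weeks and 1050 and 869 with PI3KαH1047R. Values at 6 weeks were 553, 550.3 and 763 without and 665, 743, 616 and 603 with PI3KαH1047R. Values at 12 weeks were 567 and 478 without and 698 and 911 with it. All 8 libraries with PI3KαH1047R lay above the BRAFV600E mean and 3 of 8 above every BRAFV600E library, with overlap at 6 weeks and none at 2 or 12 weeks, where many genes had none. The log2 fold change with weeks pooled was 0.35 ± 0.17 (SE, interval -0.02 to 0.71), the smallest limma p of the 10 (unadjusted 0.0643, adjusted 0.73). Its two-sided exact permutation p of 0.039 over 3003 splits was the only one under 0.05 of the 20 computed for the members in the pooled and 6 week comparisons, is not adjusted for these 20 tests, and compares with 6.73% of all genes under 0.05 by the same test (2.43% at 6 weeks). At 6 weeks its exact permutation p was 0.571, where 35 splits allow no value below 0.0286.

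*Tcf7* had 263 normalized counts in the BRAFV600E library at 2 weeks and 377 and 424 with PI3KαH1047R. At 6 weeks it had 269, 279 and 370.0 in BRAFV600E tumors and 554, 185, 237 and 272 with PI3KαH1047R. At 12 weeks it had 345 and 51.0 in BRAFV600E tumors and 45.2 and 228 with PI3KαH1047R. Each genotype thus had 1 low library at 12 weeks, and the log2 fold change with weeks pooled was 0.09 ± 0.53 (SE, limma adjusted p = 0.98). *Ctnnb1* ranged from 7148 to 12722 normalized counts in BRAFV600E tumors and from 6762 to 12164 with PI3KαH1047R. Its log2 fold change was 0.00 ± 0.16 (SE, limma adjusted p = 1), with a 95% interval from -0.34 to 0.33, the narrowest of the 10.

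**Figure D2:**
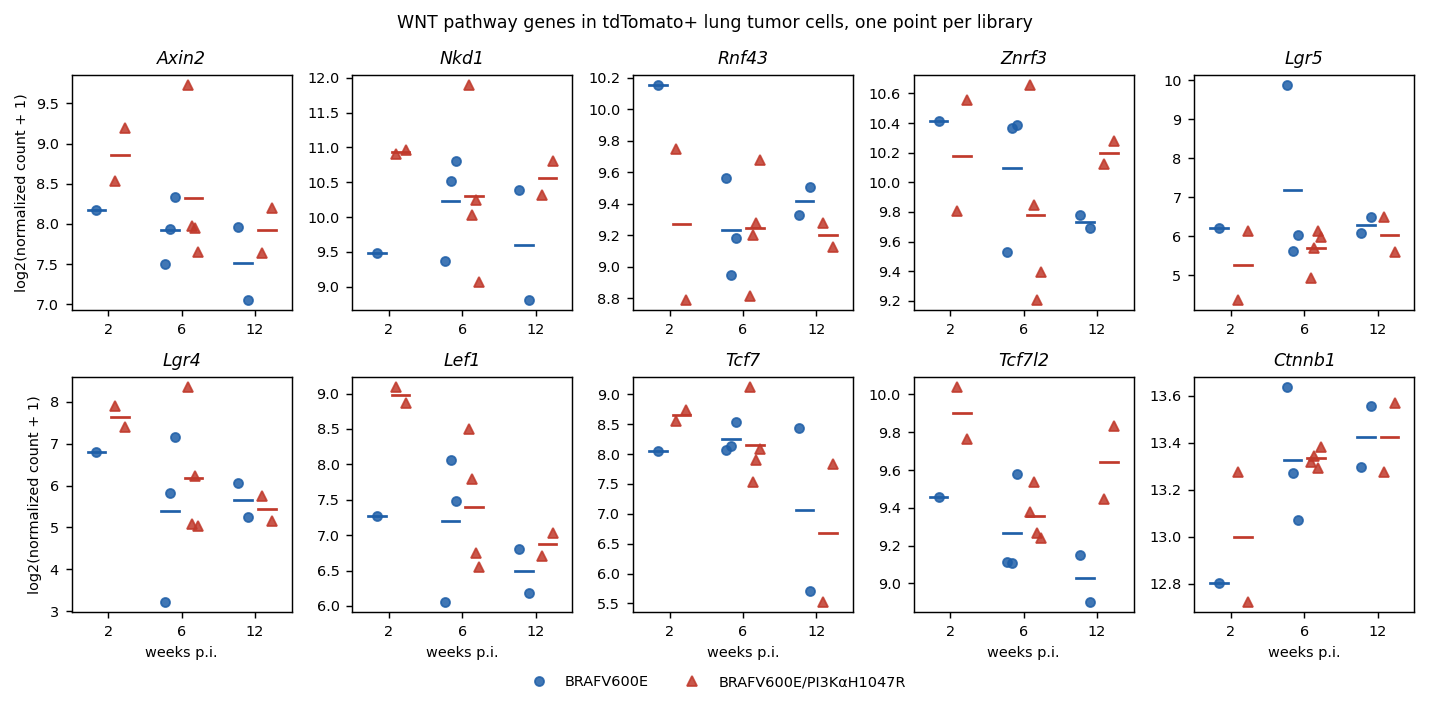
Log2 (normalized count + 1) of the 10 genes by weeks p.i. in the 14 libraries, with circles for BRAFV600E, triangles for BRAFV600E/PI3KαH1047R and a bar at each group's mean (1 to 4 libraries a group). 1 BRAFV600E library at 6 weeks stands at 937 normalized counts of *Lgr5*, and 1 library with PI3KαH1047R at 6 weeks is the highest of all 14 for *Axin2*, *Nkd1*, *Lgr4*, *Tcf7* and *Znrf3*.

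Levels by week were compared with genotype held in the fit. Between 2 and 6 weeks, 0 of the 10 members were called (0.0513% of all genes, 9 of 17558, were), and 1 of the 10 had an unadjusted limma p-value under 0.05, against 11.9% of all genes. This was *Ctnnb1*, with 7148, 9919 and 6762 normalized counts in the 3 libraries at 2 weeks and 8617 to 12722 (median 10209) in the 7 at 6 weeks. Only 1 of the 3 early libraries lay within the later range, and the log2 fold change was 0.40 ± 0.17 (SE, limma unadjusted p = 0.0338, adjusted p = 0.376). The log2 fold changes of *Lef1* (-1.04 ± 0.50, SE), *Lgr4* (-1.48 ± 0.80) and *Tcf7l2* (-0.41 ± 0.21) lay below 0, with limma adjusted p-values of 0.438, 0.504 and 0.48. Of the 10 members, 8 had a log2 fold change below 0 and their median was -0.35, beside 0.02 for all genes. Cell type markers moved in the same interval. All 10 AT2 markers had a log2 fold change above 0 (median 1.65, 9 with an unadjusted limma p-value under 0.05), while 7 of 8 alveolar type 1 (AT1) markers (median -1.04, 6 with such a p-value) and 9 of 10 fibroblast markers (median -0.92, 3 with such a p-value) lay below 0. Of the lymphocyte markers 8 of 10 lay above 0 (median 0.60, 3 with such a p-value, lowest limma adjusted p = 0.0963), as did 4 of 5 club cell (median 1.71), 4 of 4 ciliated cell (1.49) and 5 of 5 epithelial (1.08) markers. None of these markers was called, and their part in the members' values was not tested.

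Between 6 and 12 weeks 0 members were called, as were 0.0% of all genes, and 1 of the 10 had an unadjusted limma p-value under 0.05, against 5.31% of all genes (933). This was *Tcf7*, whose log2 fold change was -1.32 ± 0.52 (SE, limma unadjusted p = 0.0225, adjusted p = 0.901), and it rests on the 2 low libraries at 12 weeks, since the other 2 lay within the range of the 7 libraries at 6 weeks. The log2 fold change was -0.81 without the low library with PI3KαH1047R (replicate 1) and reached -1.87 without the BRAFV600E library that was not low (replicate 1). Both low libraries also held fewer endothelial, fibroblast and AT1 marker counts than the other library of their group. In BRAFV600E replicate 2 these markers summed, in that order, to 6173, 2576 and 27961, against 30852, 15111 and 56888 in replicate 1, and in PI3KαH1047R replicate 1 to 13452, 4889 and 26367, against 23004, 10568 and 58007 in replicate 2. Whether the PI3KαH1047R difference itself changed between 6 and 12 weeks was tested as an interaction, which called 0 members and 0.0% of all genes (2.87% of all genes, 504 in number, had unadjusted p-values under 0.05). The smallest unadjusted limma p of the 10 in that test was 0.198, for *Tcf7l2*. From 6 to 12 weeks the markers of AT2 cells (10 of 10, median 0.63) and macrophages (8 of 9, median 1.25) mostly had log2 fold changes above 0 and those of endothelial cells (8 of 10, median -0.70), fibroblasts (8 of 10, median -0.86) and AT1 cells (7 of 8, median -0.56) mostly below 0, with none called, and their part was not tested either.

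Across the 14 libraries, *Axin2* was correlated with several other members, as it was with many other genes. Pearson's r of log2 values with *Axin2* was 0.851 for *Nkd1* (Spearman's rho 0.842, permutation p = 8e-05, adjusted p = 0.00076), 0.806 for *Lef1* (rho 0.851, permutation p = 0.00026, adjusted p = 0.00123), 0.789 for *Lgr4* (rho 0.763, permutation p = 0.00066, adjusted p = 0.00241) and 0.704 for *Tcf7* (rho 0.688, permutation p = 0.00995, adjusted p = 0.0189). These 4 remained at 0.692 to 0.787 without the 2 libraries farthest from the median of *Axin2*, and at 0.699 to 0.923 as deviations from the means of genotype and week. For *Znrf3* r was 0.661 (rho 0.692, permutation p = 0.00751, adjusted p = 0.0159), 0.426 without those 2 libraries and 0.854 as deviations from the group means. *Tcf7l2* had r of 0.554 (permutation p = 0.0388, adjusted p = 0.0527) and rho of 0.754 (permutation p = 0.00257, adjusted p = 0.0061), and its r was 0.813 without those 2 libraries and 0.353 as deviations from the group means. *Rnf43*, *Lgr5* and *Ctnnb1* had r of -0.481, -0.493 and -0.499 with *Axin2*, with adjusted permutation p-values of 0.0981, 0.106 and 0.0844, although rho of *Lgr5* was -0.648 (permutation p = 0.0144, adjusted p = 0.021) and r of *Rnf43* was 0.012 without those 2 libraries and -0.745 as deviations from the group means. Relations among the members other than *Axin2* were not tested, and *Tcf7* had r of 0.445 to 0.561 with *Lgr4*, *Nkd1* and *Lef1*. All p-values are two-sided and adjusted over the 19 relations of this table, which include those with endothelial markers. In the 9 libraries of the second table r between *Axin2* and *Nkd1* was -0.659 (rho -0.433, exact permutation p = 0.0558, adjusted p = 0.265), and none of the 9 relations with *Axin2* there passed 0.05. Of the 45 pairs of members, 7 had r over 0.7 in the first table and 2 in the second, 1 and 2 had r below -0.7, and 23 had the same sign in both tables. Only *Lef1* with *Lgr4* had r over 0.7 in both (r = 0.772 and 0.869).

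Of the 10 members 7 were also correlated with endothelial RNA in the first table, where 25.4% of all other genes had an r at least as far from 0 as the weakest of the 7. By Spearman's rho 6 were, against 12.0% of all other genes. The mean log2 level of 10 endothelial markers (among them *Pecam1*, *Cdh5* and *Kdr*) ran from 8.58 to 12.17 over the 14 libraries, and none of the 10 markers was at 0 in a whole group. Pearson's r with this level was 0.886 for *Nkd1* (rho 0.925, permutation p = 1e-05, the smallest that the permutations can give, adjusted p = 0.00019), 0.826 for *Axin2* (rho 0.807, permutation p = 0.00022, adjusted p = 0.00123), 0.797 for *Lef1* (rho 0.789, permutation p = 0.00076, adjusted p = 0.00241), 0.694 for *Tcf7* (rho 0.82, permutation p = 0.00533, adjusted p = 0.0139) and 0.693 for *Lgr4* (rho 0.705, permutation p = 0.00584, adjusted p = 0.0139). Without the 2 libraries farthest from the median of that level r was 0.796, 0.704, 0.733, 0.473 and 0.624 in the same order. *Rnf43* and *Lgr5* went the other way, with r of -0.581 (rho -0.556, permutation p = 0.029, adjusted p = 0.0459) and -0.572 (rho -0.732, permutation p = 0.0232, adjusted p = 0.0401). For *Tcf7l2* r was 0.562 (rho 0.468, permutation p = 0.0366, adjusted p = 0.0527), for *Znrf3* it was 0.399 (rho 0.455, permutation p = 0.158, adjusted p = 0.167), and *Ctnnb1* had r of -0.277 (rho -0.336, permutation p = 0.338, adjusted p = 0.338). In bulk RNA of sorted cells, fewer cells of a type and less RNA per cell cannot be told apart.

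The summed endothelial markers were 58322 and 59623 normalized counts in the libraries with PI3KαH1047R at 2 weeks, against 7341 in the BRAFV600E library of that week, and 82773 in replicate 1 with PI3KαH1047R at 6 weeks, the highest of all 14. The 10 fibroblast markers summed to 29324 and 42566 with PI3KαH1047R at 2 weeks against 14378, and the 10 AT2 markers to 77013 and 159214 against 792011. The same replicate 1 at 6 weeks had the highest fibroblast (29820), AT1 (128134) and club cell (23441) marker sums of the 7 libraries of its week and the lowest AT2 (302426) and epithelial (9326) sums, so endothelial markers were not alone in setting it apart. This library and both with PI3KαH1047R at 2 weeks are the 3 in which *Lef1*, *Axin2* and *Nkd1* were highest. These 3 libraries also had the highest fibroblast and AT1 and the lowest AT2 marker sums of all 14. Levels of those cells were not correlated with the members or used as covariates. Among the 10 endothelial markers, 10 had a log2 fold change above 0 with PI3KαH1047R and weeks pooled (median 0.91), 10 of 10 AT2 markers had one below 0 (median -0.95), and 0 of either were called. In that comparison 9 of 9 macrophage (median 0.74), 8 of 8 AT1 (0.38) and 7 of 10 fibroblast (0.56) markers also lay above 0. Epithelial markers lay below 0 in 5 of 5 (median -0.40), and none of these were called either. With the endothelial level as a covariate, the pooled log2 fold changes were 0.06 for *Axin2*, 0.03 for *Lef1*, -0.01 for *Nkd1*, -0.21 for *Lgr4* and -0.65 for *Tcf7*, against 0.53, 0.69, 0.63, 0.64 and 0.09 without it, and 0 members were called either way. The part of endothelial or other cells in these levels was not tested.

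**Figure D3:**
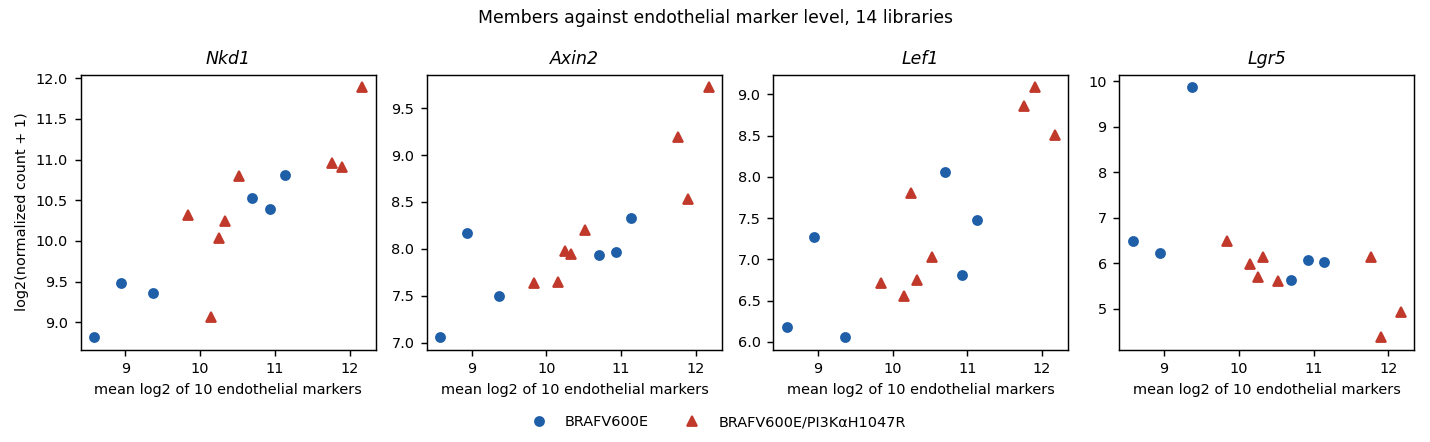
Log2 (normalized count + 1) of *Nkd1*, *Axin2*, *Lef1* and *Lgr5* against the mean log2 level of 10 endothelial markers in the 14 libraries, with circles for BRAFV600E and triangles for BRAFV600E/PI3KαH1047R. *Nkd1*, *Axin2* and *Lef1* are highest in the 3 libraries with the highest endothelial level (11.76 to 12.17), and *Lgr5* has 1 library far above the rest.

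The genes whose log2 values were most like each member over the 14 libraries are given as a description, with r in the 9 libraries of the other table beside it. For *Axin2* they were *Myl12a* (r = 0.961, and 0.287 in the other table), *Ecscr*, an endothelial cell surface gene (0.951 and -0.607), and *Gbe1* (0.949 and 0.304). The closest genes were *Fmnl2* for *Nkd1* (0.938 and 0.008), *Cttnbp2nl* for *Lef1* (0.954 and -0.3), *Hgf* for *Tcf7* (0.959 and 0.073) and *Mpv17* for *Lgr4* (0.938 and -0.378). *Tcf7l2* was most like *Pfn2* (0.898 and -0.269), *Znrf3* most like *Dlgap4* (0.875 and 0.276), *Rnf43* most like *Synb* (0.879 and -0.454) and *Lgr5* most like *LT629151.10* (0.881 and -0.236). *Ctnnb1* was most like *Pgm2* (0.902 and 0.263) and then *Samd5* (0.87 and 0.486) and *Etv5* (0.87 and 0.608), an ETS factor of AT2 cells. They were the highest of 17558 genes over only 14 libraries, and most were much lower in the other table.

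The second table addresses whether loss of PGC1α, a transcriptional coactivator encoded by *Ppargc1a*, went with other levels of these genes in BRAFV600E tumors. *Ppargc1a* itself had 75.8, 170.2, 155, 200 and 561 normalized counts in the 5 BRAFV600E/PGC1αHet libraries and 72.7, 38.0, 51.6 and 124 in the 4 BRAFV600E/PGC1αNull libraries. These groups overlapped (log2 fold change -1.51, limma adjusted p = 0.978), and since the counts are per gene they do not show whether the mutant exons are read. Of the 10 members 0 were called, as were 0.0% of all 17424 genes, and 1 of the 10 had an unadjusted limma p-value under 0.05, against 3.83% of all genes (667). The median log2 fold change of the 10 was 0.40, beside 0.01 for all genes. In none of the 10 were the groups fully apart, against 1.4% of all genes.

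*Axin2* had 88.3, 60.5, 43.1, 48.5 and 34.7 normalized counts in BRAFV600E/PGC1αHet tumors and 32.5, 32.5, 38.2 and 20.2 in BRAFV600E/PGC1αNull tumors. Of the 4 null libraries 3 lay below every heterozygous one, and the log2 fold change was -0.78 ± 0.39 (SE, limma adjusted p = 0.998, exact permutation p = 0.0317). *Znrf3* had 255, 210, 359, 258 and 445 in heterozygous and 161, 215, 239 and 164 in null tumors, and 2 of the 4 null libraries lay below every heterozygous one. Its log2 fold change was -0.61 ± 0.27 (SE, limma unadjusted p = 0.0395, adjusted p = 0.998, exact permutation p = 0.0476). *Nkd1*, another feedback gene, had 38.4, 21.4, 112, 140 and 155 in heterozygous and 64.1, 95.9, 164 and 154 in null tumors (log2 fold change 0.61 ± 0.56, SE, limma adjusted p = 0.998, and 0.18 without heterozygous replicate 2), and *Rnf43* ranged from 125 to 357 and from 119 to 300.0. The feedback genes thus had values on both sides of 0, and those of *Nkd1* and *Rnf43* overlapped widely.

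*Lgr4* had 16.4, 10.1, 8.26, 8.29 and 12.98 normalized counts in heterozygous tumors and 39.2, 18.2, 16.3 and 18.4 in null tumors. Of the 4 null libraries 3 lay above every heterozygous one, and replicate 1 was more than 2-fold above the other null libraries. The log2 fold change was 0.93 ± 0.53 (SE, limma adjusted p = 0.998, exact permutation p = 0.0238), and 0.65 without that library. *Lef1* had 51.5, 69.2, 34.8, 25.7 and 67.5 in heterozygous and 151, 88.6, 56.5 and 72.1 in null tumors, with 3 of 4 null libraries above every heterozygous one and a log2 fold change that was 0.87 ± 0.41 (SE, limma adjusted p = 0.998, exact permutation p = 0.0794). *Tcf7* ranged from 13.4 to 37.0 and from 20.6 to 60.5 (log2 fold change 0.67), *Lgr5* from 20.8 to 94.8 and from 63.8 to 122 (0.58, and 0.24 without heterozygous replicate 3), *Tcf7l2* from 257 to 578 and from 356 to 516 (0.23, and 0.08 without heterozygous replicate 1) and *Ctnnb1* from 4293 to 6476 and from 3107 to 5732 (-0.22, and -0.05 without null replicate 4). These 4 overlapped, with limma adjusted p-values of 0.998 and exact permutation p-values of 0.143 to 0.413. Of the 10 exact permutation tests in this table, 3 gave p under 0.05 before any adjustment, against 4.05% of all genes by the same test, and 126 splits allow none below 0.00794.

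**Figure D4:**
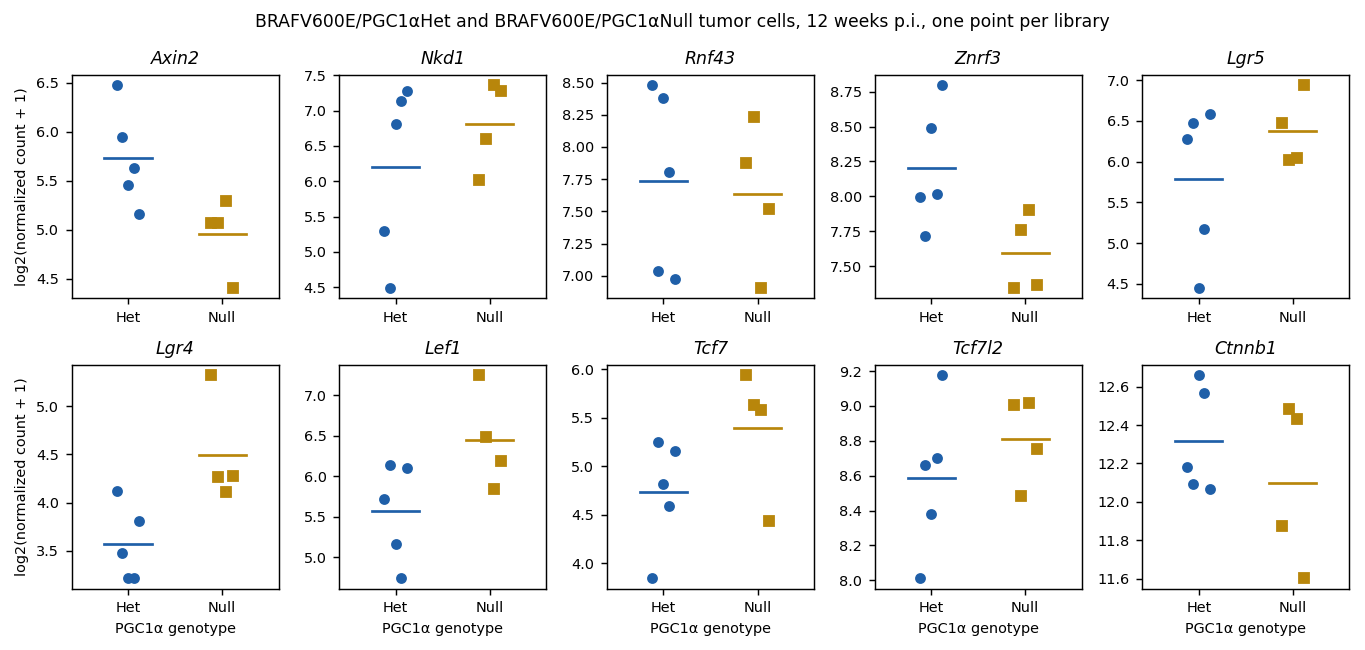
Log2 (normalized count + 1) of the 10 genes in 5 BRAFV600E/PGC1αHet (circles) and 4 BRAFV600E/PGC1αNull (squares) libraries at 12 weeks p.i., with a bar at each mean. *Axin2* and *Znrf3* have lower and *Lgr4* and *Lef1* higher means in null tumors, and every gene overlaps in at least 1 library.

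Markers of other cells moved with the PGC1α genotype too. The 10 endothelial markers summed to 621 to 954 normalized counts in heterozygous and 1641 to 2260 in null tumors, without overlap, and 10 of 10 had a log2 fold change above 0 (median 1.66), of which 9 had an unadjusted limma p-value under 0.05 and 0 were called. The 5 club cell markers (among them *Scgb1a1*) stood further apart, at 1438 to 3380 and 5033 to 19944, also without overlap, with 5 of 5 log2 fold changes above 0 (median 3.16), 4 unadjusted p-values under 0.05 and 0 calls (lowest limma adjusted p = 0.177). Fibroblast markers summed to 140 to 561 and 435 to 1723, macrophage markers to 374 to 1620 and 1156 to 2018, lymphocyte markers to 144 to 592 and 347 to 812, and AT2 markers to 539822 to 678055 and 425603 to 659525, with overlap in each. The endothelial levels fall into separate clusters of 5 and 4 libraries, so no pooled correlation with them is given, and none of the 10 that were computed passed 0.05 after adjustment (lowest adjusted exact permutation p = 0.265 for r and 0.242 for rho). As deviations from the means of the 5 and 4 libraries, r with the endothelial level was -0.221 for *Axin2*, 0.253 for *Nkd1*, 0.286 for *Lef1*, 0.304 for *Lgr4* and -0.269 for *Tcf7*. It was 0.641 for *Lgr5*, -0.501 for *Ctnnb1*, 0.463 for *Znrf3*, -0.311 for *Rnf43* and 0.239 for *Tcf7l2*. The sign for *Axin2*, *Tcf7* and *Lgr5* was opposite to that in the first table, where the deviations gave 0.875, 0.8 and -0.632. With the endothelial level as a covariate, the log2 fold changes of *Axin2*, *Lef1* and *Lgr4* were -0.42, 0.26 and 0.42, against -0.78, 0.87 and 0.93 without it, and that of *Znrf3* was -1.23, against -0.61. *Lgr5* went to -1.15 and *Nkd1* to -0.30, from values above 0. The mean log2 endothelial level was 4.60 to 6.16 in heterozygous and 6.81 to 7.45 in null tumors. Without overlap these fits cannot separate that level from genotype, and no conclusion is drawn from them. The part of these cells in the members' values was not tested.

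**Figure D5:**
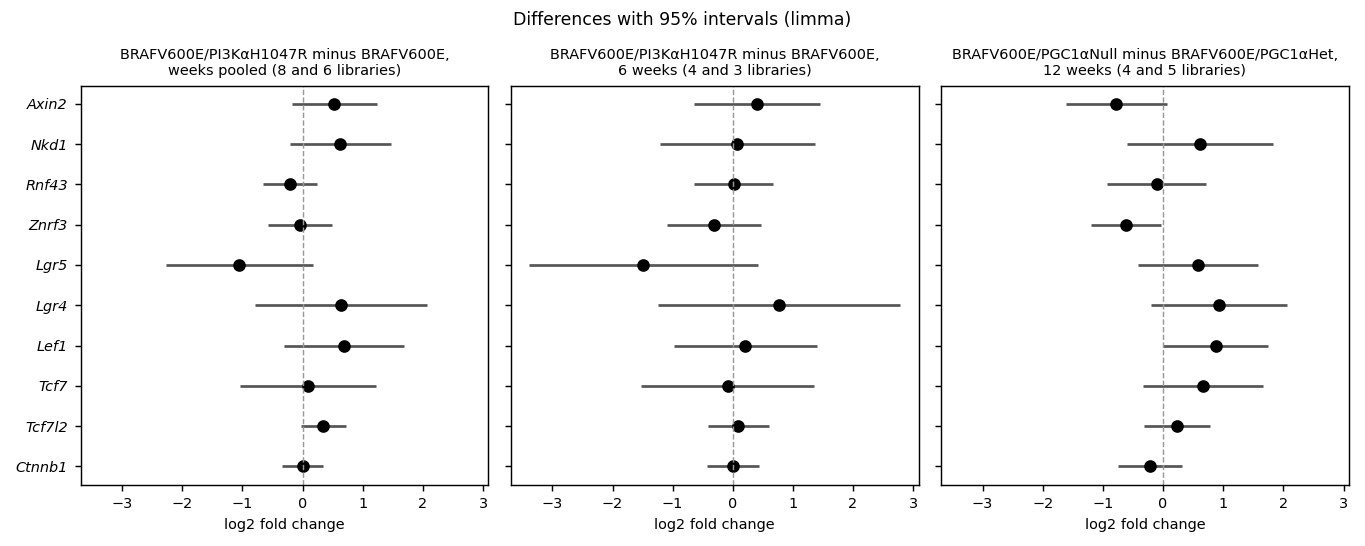
Log2 fold changes of the 10 genes with 95% intervals from limma, for BRAFV600E/PI3KαH1047R against BRAFV600E with weeks pooled (8 and 6 libraries) and at 6 weeks (4 and 3), and for BRAFV600E/PGC1αNull against BRAFV600E/PGC1αHet (4 and 5). Of the 30 intervals only that of *Znrf3* in the PGC1α comparison leaves out 0 (-1.19 to -0.03), and *Lgr5* and *Lgr4* have the widest in the PI3KαH1047R comparisons.

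The rest of the pathway was covered by lists of 102 genes (ligands and their secretion, R-spondins, receptors, extracellular inhibitors, the destruction complex, nuclear factors and other targets), of which 81 passed the filter in the first table and 73 in the second. None was called in any comparison. With weeks pooled, 5 of the 81 had an unadjusted limma p-value under 0.05 (6.17%, against 6.83% of all genes), and their median log2 fold change was -0.02. Of the 11 other targets tested, 8 had a log2 fold change below 0 and the median was -0.53, beside 0.02 for all genes and -0.95 for the 10 AT2 markers. *Sox9*, a transcription factor gene of the lung bud tip, had a median of 74.6 normalized counts with PI3KαH1047R (range 29.4 to 220) and 414 without (96.1 to 748). The ranges overlapped, although 0 of 8 libraries lay above the BRAFV600E median, and the log2 fold change was -2.03 ± 0.48 (SE, limma unadjusted p = 0.000662, adjusted p = 0.225). *Rspo3*, an R-spondin gene, and *Ephb2*, an ephrin receptor gene and target in the gut, were next lowest at -2.02 and -1.63 (limma adjusted p = 0.75 and 0.637).

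The 3 genes of these lists with the highest log2 fold changes with PI3KαH1047R were the ligand *Wnt2* (1.26, median 70.7 against 32.9 normalized counts), *Prox1* (0.87), a lymphatic endothelial transcription factor gene, and the ligand *Wnt5a* (0.84, median 586 against 341), with limma adjusted p-values of 0.828, 0.861 and 0.738. *Wnt5a* lay above the BRAFV600E median in 8 of 8 libraries and *Wnt2* in 7 of 8. Between 2 and 6 weeks 11 of the 81 had an unadjusted limma p-value under 0.05 (13.6%, against 11.9% of all genes), and of the 11 other targets 10 had a log2 fold change above 0 (median 0.82, beside 0.02 for all genes). In that interval 10 of 10 AT2 markers also lay above 0 (median 1.65), and their part in these values was not tested. In the PGC1α comparison 0 of 73 had an unadjusted limma p-value under 0.05, against 3.83% of all genes. There the highest log2 fold changes were those of *Rspo1* (1.64), the secreted factor gene *Dkk3* (1.51) and *Tnfrsf19* (1.18), and the lowest those of the receptor genes *Ror1* (-1.17) and *Fzd3* (-0.99) and the ligand *Wnt16* (-0.95). *Dkk3* lay above the heterozygous median in 4 of 4 null libraries, *Rspo1* in 3 of 4, *Tnfrsf19*, *Fzd3* and *Wnt16* in 1 of 4 and *Ror1* in 0 of 4, while the ranges of all 6 overlapped between groups.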

How the data were processed

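Single-end reads came from RNA of flow sorted tdTomato+ cells after amplification (Nugen Ovation Ultralow). Per the labels, the authors estimated transcript abundance with Salmon on GRCm38 and normalized it with DESeq2, whose versions are not given in the sources used here. The deposited signal values are these normalized counts per gene, which are not whole reads, so no count model was used. The authors also deposited tables of their own comparisons (base means, log2 fold changes, standard errors, test statistics and p-values), which were not used. Samples were grouped by genotype and week from their labels. Mice were separate animals according to the methods.

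Here, genes that averaged 10 normalized counts or more were tested on the scale of log2 (normalized count + 1) with limma 3.58.1 (trend, moderated variance, two-sided) in R 4.3.3, with Benjamini-Hochberg adjustment over all genes and a threshold of 0.05. Weeks were pooled as in the study, and 6 week contrasts used a mean for each genotype and week. The 2 and 12 week genotype differences are values with no test. Exact permutations of libraries used the absolute difference of log2 means. Other steps ran in Python 3.11.15 (scipy 1.17.1, matplotlib 3.10.9, pandas 2.3.3, numpy 2.4.6). Positions and transcript lengths are from GENCODE vM21 (GRCm38), matched by symbol, and promoters from RefSeq. Both statistical steps were tested on simulated data. Replicate numbers did not pair libraries of different genotypes: the correlations of deviations from group means for same-numbered libraries were -0.284, -0.033 and -0.0138 at 6 weeks.

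The members, lists and tests were chosen with earlier results of these data known. Named genes are the 10 members, wider WNT genes called in a comparison, *Ppargc1a*, *Kdm5d* and cell type markers. Also named are those 3 with the lowest and 3 with the highest log2 fold change in the wider lists (pooled and PGC1α comparisons). The gene most like each member is named as well, with the 3 most alike for *Axin2* and *Ctnnb1*. Genes such as *Col1a1* (fibroblasts) and *Cd3e* (lymphocytes) were in the marker lists. Alternatives were quantile normalization, a pseudocount of 4, a filter at a mean over 40, no filter beyond a value above 0, a replicate block, sex label, week or endothelial marker level as covariates, leaving out both BRAFV600E/PI3KαH1047R libraries at 12 weeks, and leaving out each library.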

Additional observations from a re-analysis of the deposited data

Results flagged for a closer look

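In 30 sets of 4 or 5 libraries of a group, a Dixon test asked whether the highest or lowest library stood apart for a member. Of the 30 sets 2 did, close to the about 1 in 20 that chance gives. The share of all genes flagged by this test is not known. *Axin2* had 844.7 normalized counts in BRAFV600E/PI3KαH1047R replicate 1 at 6 weeks, against 200.0 to 251 in the other 3 libraries, with a gap of 0.843 of the range on the log2 scale. This library also had the highest endothelial marker sum of the 14 (82773), and, of the 7 libraries at 6 weeks, the highest fibroblast, AT1 and club cell sums and the lowest AT2 sum (302426), and their part in the value was not tested. *Lgr4* had 39.18 normalized counts in BRAFV600E/PGC1αNull replicate 1, against 16.3 to 18.4 in the other 3, with a gap of 0.861 of the range. Of the 9 libraries it had the highest total (9159567) and the largest share of it in its top 10 genes (28.3%), and its endothelial marker sum (1641) was the lowest of the 4 null libraries, and the part of these in the value was not tested. The 937 normalized counts of *Lgr5* in BRAFV600E replicate 1 at 6 weeks fall in a group of 3, which is too small for this test. No member's PI3KαH1047R difference differed between 6 and 12 weeks by limma (lowest adjusted p = 1, lowest unadjusted p = 0.198, 0 of 10 under 0.05).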

How the results depend on the processing

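Over 1028 refits of single members 0 were called (lowest limma adjusted p = 0.202, *Lgr4* from 2 to 6 weeks without BRAFV600E/PI3KαH1047R 6 week replicate 1), and 955 kept their direction. Of the 73 that did not, most were small values, and the cause was not tested. With weeks pooled, log2 fold changes turned to -0.0737 (*Tcf7*) and 0.0728 (*Ctnnb1*) with the replicate block, to 0.0363 (*Znrf3*) and 0.10 (*Ctnnb1*) with the sex label, to -0.0389 (*Tcf7*) and 0.0409 (*Ctnnb1*) with week as a term, and to -0.65 (*Tcf7*), -0.21 (*Lgr4*), -0.0136 (*Nkd1*) and 0.0762 (*Ctnnb1*) with the endothelial level. At 6 weeks they turned to -0.13 (*Rnf43*) and -0.0099 (*Ctnnb1*) with the replicate block and to 0.005 (*Tcf7*) and -0.0262 (*Rnf43*) with the sex label. The replicate block gave 0.19 for *Nkd1* from 2 to 6 weeks and -0.13 for *Znrf3* from 6 to 12 weeks. Without both BRAFV600E/PI3KαH1047R libraries at 12 weeks, the 6 to 12 week values were -0.18 (*Tcf7l2*), 0.26 (*Lgr4*) and -0.35 (*Znrf3*). With the endothelial level the PGC1α values were -0.0826 (*Tcf7l2*), -1.15 (*Lgr5*), -0.30 (*Nkd1*), 0.62 (*Rnf43*) and 0.41 (*Ctnnb1*). That level did not overlap between heterozygous and null tumors, so these values cannot separate it from genotype.

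Leaving out each library turned the direction in at least 1 fit for 18 results. At 6 weeks the ranges were -0.0667 to 0.62 (*Axin2*), -0.12 to 0.16 (*Ctnnb1*), -0.36 to 0.63 (*Lef1*), -0.32 to 1.65 (*Lgr4*), -0.45 to 0.49 (*Nkd1*), -0.13 to 0.18 (*Rnf43*) and -0.41 to 0.12 (*Tcf7*). With weeks pooled they were -0.0944 to 0.0779 (*Ctnnb1*), -0.33 to 0.43 (*Tcf7*) and -0.14 to 0.0669 (*Znrf3*). From 6 to 12 weeks they were -0.73 to 0.12 (*Lgr4*), -0.56 to 0.36 (*Lgr5*), -0.40 to 0.19 (*Nkd1*), -0.031 to 0.14 (*Rnf43*), -0.0933 to 0.14 (*Tcf7l2*) and -0.0829 to 0.18 (*Znrf3*), from 2 to 6 weeks -0.48 to 0.17 (*Nkd1*), and in the PGC1α comparison -0.30 to 0.14 (*Rnf43*).

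The counts of all genes called moved more. The pooled count of 4 was 7 at a pseudocount of 4 and with quantile normalization, and 3 to 9 leaving out each library (9 without BRAFV600E/PI3KαH1047R 12 week replicate 1). At 6 weeks the count of 4 was 7 at a pseudocount of 4, 1 with every gene above 0, with the sex label or without both 12 week libraries, and 1 to 12 leaving out each library (12 without either BRAFV600E 12 week library). From 2 to 6 weeks the count of 9 was 3 at a pseudocount of 4 and without both 12 week libraries, 6 at a mean over 40 or with every gene above 0, 4 with quantile normalization or the sex label, and 1 to 102 leaving out each library (102 without the only BRAFV600E library at 2 weeks, 47 without BRAFV600E/PI3KαH1047R 6 week replicate 1). From 6 to 12 weeks the count of 0 ran to 1 without BRAFV600E 12 week replicate 2. The interaction count of 0 was 2 with every gene above 0 or quantile normalization, ran from 0 to 1 leaving out each library, and could not be fitted without both 12 week libraries. The PGC1α count was 0 in every refit.

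Replicate numbers are shared across genotypes, but same-numbered libraries did not deviate together (-0.284 to -0.0138 at 6 weeks, -0.146 at 12 weeks, -0.467 to 0.211 for PGC1α). With the replicate block the counts were 6 pooled, 0 at 6 weeks, 0 from 2 to 6 weeks, and 0 in the other comparisons. Crossing the 12 week numbers, an alternative chosen after seeing the data, gave 6 pooled. The estimates for *Tcf7* (-0.0737) and *Ctnnb1* (0.0728) stayed the same by construction, since each 12 week block holds 1 library of each genotype either way. They are thus no check. Groups of 2 libraries also allow only 1 size of correlation at 12 weeks, -0.146 as numbered and 0.146 when crossed.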
